A study of Mus musculus with 2 samples.

Results

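Genes of Wnt signalling were measured in 2 populations of cells sorted from the back skin of mice. Members were the non-control probes whose gene name on the array was a Wnt, Fzd, Sfrp or Dkk gene, or Lrp5, Lrp6, Axin1, Axin2, Apc, Lef1, Tcf7, Nkd1, Nkd2, Wif1, Porcn, Wls or Myc. The rule found 74 probes of 50 genes among 41174 probes and 27730 genes of the array, and no probe carried the name Wls. By role there were 19 Wnt ligands, the ligand-modifying enzyme Porcn, 12 receptors, 10 secreted antagonists and their relatives, 5 genes of the destruction complex and its feedback, and 3 transcription factors or targets.

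The Lgr6-high population came from Lgr6-EGFP-ires-CreERT2 knock-in mice and the Lgr5-high population from Lgr5-EGFP-ires-CreERT2 knock-in mice. In each line the reporter cassette sits in the receptor's own gene, so cells were sorted for bright green fluorescence driven by that gene's promoter. RNA of 3 mice was pooled per sort, and the labels give neither age, sex nor hair cycle stage. Both populations therefore carried a knock-in allele, each in a different gene, and no population without a reporter was used here. Each of the 2 arrays carried both populations in exchanged dyes. On array 1 the Lgr6-high RNA was in Cy5 and the Lgr5-high RNA in Cy3, and on array 2 the reverse.

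Wnt proteins are secreted lipid-modified ligands. They bind Frizzled receptors together with the co-receptors Lrp5 or Lrp6, which inactivates the destruction complex built on Axin and Apc and lets beta-catenin activate genes with Tcf and Lef factors. Sfrp and Wif1 proteins bind the ligands, and Dickkopf proteins bind the co-receptors. In skin the pathway is known for starting hair follicle growth, and the R-spondin receptors Lgr5 and Lgr6 amplify it.

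A ratio below is the log2 of Lgr6-high over Lgr5-high, given per array and as a mean ± SD of the 2 arrays. This SD carries no spread between animals, since whether the arrays held separate RNA pools is not stated in the labels. A gene was called where its mean reached 2-fold and each array by itself gave 0.5 or more with the same sign, a rule of size and not a test. A gene counted as measured when a probe was well above background for at least 1 population on both arrays. Cy3 was the more sensitive dye, with 31.6% and 33.3% of probe spots well above background on arrays 1 and 2 against 15.3% and 16.2% for Cy5. Negative control spots had median signals of 92.8 and 91.9 in Cy3 and 153 and 152 in Cy5. Spot signals below are raw scanner values, so that populations within a dye come from different arrays. The reporter genes themselves were unequal as checks. Lgr5 had a ratio of -1.83 ± 0.12. Lgr6 was well above background in Cy3 for both populations and in Cy5 for neither, was not measured by the rule above and had a ratio of 0.05 ± 0.14. Of the keratinocyte markers 6 of 6 were measured, but the basal keratins differed widely between the arrays. Krt14 had 2.24 on array 1 and -0.10 on array 2, Krt15 1.95 and -0.12, and Krt5 1.82 and -0.15. The cause was not tested.

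The probes of the 6 called members are shown by their first 30 of 60 bases, since these are the stretches of transcript the ratios rest on. A second Wnt3 probe is added because its ratio differed. Positions are on mouse build mm9, as in the files, and the part of the transcript each covers was not analysed here.
Wnt10a, chr1:74850633-74850692, plus strand: tttcacttaacagatatttatttttgcgct
Wnt3, chr11:103677409-103677468, plus strand: attgtgcgactggatccattcatcgaagtc
Wnt3, second probe, chr11:103679038-103679097, plus strand: atttaataatagtacatgagcgcattgtaa
Myc, chr15:61821516-61821576, plus strand: gttccttctgacagaactgatgcgctggaa
Fzd1, chr5:4754003-4754062, minus strand: caaatgccgatacatacataggacctaaat
Fzd2, chr11:102467613-102467672, plus strand: tcacagtctacatgatcaaatacctcatga
Sfrp1, chr8:24558112-24558171, plus strand: cggaatcagtatagcgtggaaggagacagt

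Of the 50 members 15 were measured, namely 6 ligands, 5 receptors, 3 antagonists and Myc. The ligands Wnt10a and Wnt3 and the growth regulator Myc were called higher in Lgr6-high cells, and the receptors Fzd1 and Fzd2 and the antagonist Sfrp1 higher in Lgr5-high cells. That is 3 of 15 (20%) in each direction, where the same rule called 7.28% of 6195 measured genes higher in Lgr6-high and 4.76% higher in Lgr5-high cells. No ligand was called toward Lgr5-high cells and no receptor toward Lgr6-high cells, although the scanner software's own ratio called Wnt5b and Fzd10 so. Of the 15 ratios 9 were above 0, where 46.4% of all measured genes were. The median ratio was 0.80 over the 6 measured ligands, -0.24 over the 5 receptors and -0.14 over the 4 other genes, against -0.05 over all measured genes. A member could enter through the population where it was bright. Among the called members, Wnt3, Fzd1 and Sfrp1 were above background on both arrays only in the population where they were higher. The shares called and the medians therefore describe the measured members and not the family. With both populations above background, 2 and 1 of 8 members were called, beside 345 and 221 of 4504 genes. Over all members of each class, dim ones included and Porcn left out, the medians were 0.11, -0.02 and -0.07. The number of calls also moved with the scaling. It was 6 toward Lgr6-high and 5 toward Lgr5-high cells with the scanner software's own ratio, and 2 and 0 without background subtraction. Of all 6195 measured genes, 958 and 958 were called with the scanner's ratio and 212 and 204 without background subtraction. Over all genes 60.5% of the calls were toward Lgr6-high cells, a share of 45.1% with the background model fitted on all spots, 70.2% with median centring and 50% with the scanner's ratio.

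**Figure D1:**
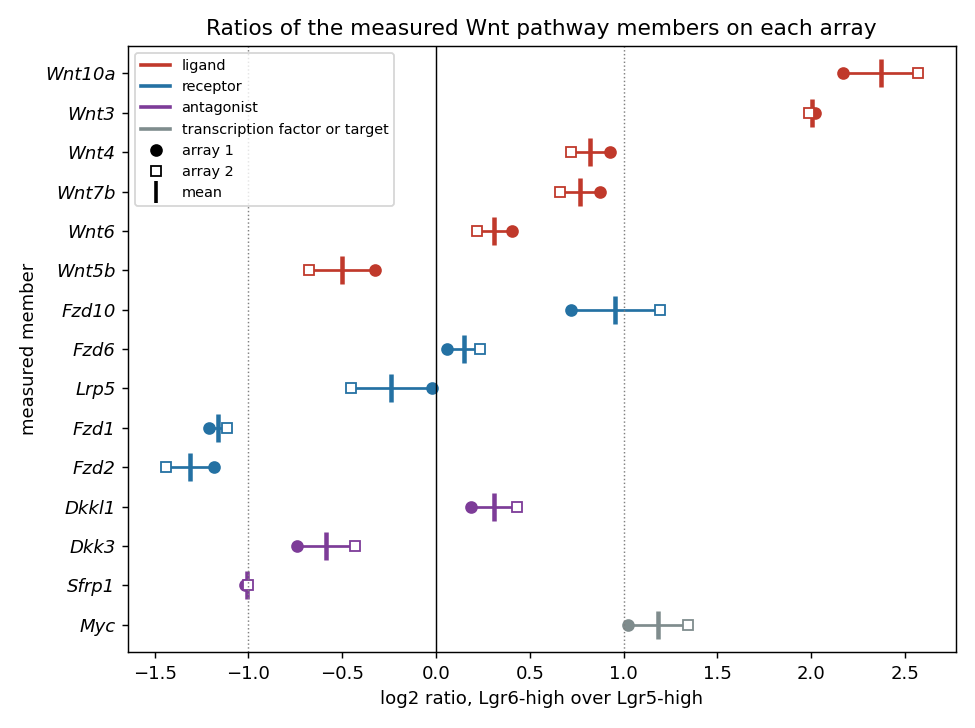
Log2 ratio of Lgr6-high over Lgr5-high for each of the 15 measured members, grouped by role, with array 1 as a filled circle, array 2 as an open square and the mean as a bar. The dotted lines mark 2-fold; Wnt10a, Wnt3 and Myc lie beyond it on the right on average and Sfrp1, Fzd1 and Fzd2 on the left.

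Wnt10a, a ligand of the beta-catenin branch that is active in hair follicles and epidermis, was 5.17-fold higher in Lgr6-high cells, and its log2 ratio was 2.93 with the scanner software's own values. Its Cy3 signal was 4695 in Lgr6-high cells and 500.5 in Lgr5-high cells, and its Cy5 signal 568 and 237. The Lgr6-high signal was thus the higher in either dye, and all 4 signals were well above background. The ratios of 2.17 and 2.57 gave a mean of 2.37 ± 0.28.

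Wnt3 is another beta-catenin ligand. In Cy3 it gave 1319 in Lgr6-high cells and 119.7 in Lgr5-high cells, the latter close to the negative controls, and in Cy5 263 and 175. The Lgr5-high signal was well above background on 1 of the 2 arrays, in Cy3 and not in Cy5. The ratios were 2.02 and 1.99 (mean 2.0 ± 0.02, 4.01-fold), and the scanner's ratio was 4.06. The order of Wnt3 and Wnt10a thus differed between the scanner's ratio and the main processing. The second Wnt3 probe, further along the same strand, was well above background only for the Lgr6-high RNA in Cy3 (277 against 89.5 for Lgr5-high). It had a ratio of 0.49 ± 0.26, in the same direction, and did not pass the filter on dim probes.

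Wnt4, a ligand of epithelial and mesenchymal tissues, and Wnt7b, an epithelial ligand, also had positive ratios on both arrays without reaching 2-fold. Wnt4 gave Cy3 signals of 605 in Lgr6-high cells and 193 in Lgr5-high cells, with ratios of 0.93 and 0.72 (mean 0.82 ± 0.14). Wnt7b gave 528 and 149 in Cy3, with ratios of 0.88 and 0.66 (mean 0.77 ± 0.15). In Cy5 the same genes differed less, at 218 against 193 for Wnt4 and 211 against 181 for Wnt7b. Both passed the rule with the scanner software's own ratio, at 1.38 and 1.81.

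Wnt6, whose gene neighbours Wnt10a, had 0.31 ± 0.13, and its second measured probe 0.28 ± 0.28. Wnt5b, a ligand known mainly for signalling without beta-catenin, was the 1 measured ligand with a negative ratio. Its Cy3 signal was 223 in Lgr6-high cells and 341 in Lgr5-high cells, and its ratios were -0.32 and -0.68 (mean -0.50 ± 0.25). The scanner's ratio of -1.32 passed the rule. A second Wnt5b probe, which was not measured, had 0.06 ± 0.06.

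**Figure D2:**
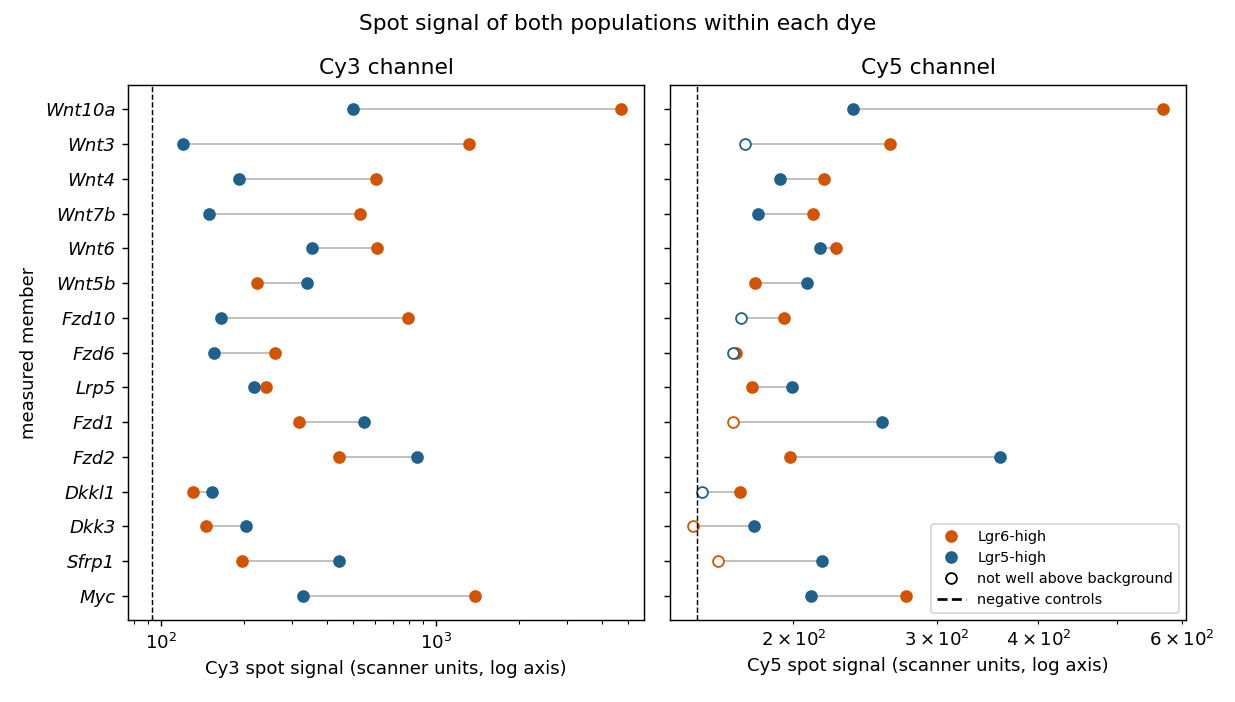
Spot signal in scanner units (log axes) of the 15 measured members, Cy3 on the left and Cy5 on the right, with Lgr6-high in orange and Lgr5-high in blue. Open points were not well above background and the dashed line is the mean of the negative control medians of the 2 arrays; in both dyes Wnt10a and Wnt3 have the higher Lgr6-high signal and Fzd1, Fzd2 and Sfrp1 the higher Lgr5-high signal.

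Several Wnt genes lie in pairs on the chromosome. The Wnt6 and Wnt10a probes are 19.2 kb apart on chromosome 1, with all 4 signals of each well above background and ratios of 0.31 and 2.37. The Wnt9b and Wnt3 probes are 88.5 kb apart on chromosome 11, and Wnt9b was above background in none of its 4 signals against 3 for Wnt3. Wnt3a and Wnt9a are 85.0 kb apart on the same chromosome, and Wnt10b and Wnt1 21.1 kb apart on chromosome 15. Wnt3a and Wnt10b were each above background in 1 signal, Cy3 for Lgr6-high, and Wnt9a and Wnt1 in none.

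The other ligands were dim. Wnt11, a ligand of cell polarity signalling, was above background in Cy3 for both populations, with 187 in Lgr6-high cells and 116 in Lgr5-high cells, and had a ratio of 0.20 ± 0.49. Wnt3a (242 against 101), Wnt16 (164 against 81.7) and Wnt10b (130 against 101) were above background in Cy3 only for Lgr6-high cells. Wnt1, Wnt2, Wnt2b, Wnt5a, Wnt7a, Wnt8a, Wnt8b, Wnt9a and Wnt9b were not above background in any of the 4 signals. No ligand was above background in Cy3 for Lgr5-high cells alone, a class with 3.39% of all genes. At that share, 0 of 19 does not set the ligands apart. Porcn, the acyltransferase that puts the lipid on Wnt proteins, had Cy3 signals of 129 and 178 and a ratio of 0.31 ± 0.50, and the arrays differed, at -0.05 and 0.66.

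Receptor genes went both ways. Fzd2, a Frizzled receptor, had Cy3 signals of 442 in Lgr6-high cells and 856 in Lgr5-high cells, and Cy5 signals of 198 and 359. All 4 were well above background and the Lgr5-high signal was the higher in each dye. The ratios of -1.18 and -1.44 gave -1.31 ± 0.18, or 2.48-fold toward Lgr5-high cells. A second Fzd2 probe was above background in neither population, at -0.04 ± 0.26.

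Fzd1, a close relative of Fzd2, gave 317 and 547 in Cy3 and 168 and 257 in Cy5. The Lgr6-high signal in Cy5 was not well above background, and the ratios were -1.21 and -1.11 (mean -1.16 ± 0.07, 2.24-fold). Fzd7, of the same subfamily, was above background in Cy3 for both populations (141 and 126) and had -0.03 ± 0.20.

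Fzd10 lay on the opposite side. Its Cy3 signal was 793 in Lgr6-high cells and 165 in Lgr5-high cells and its Cy5 signal 195 and 172, the last not well above background. The ratios were 0.72 and 1.2 (mean 0.96 ± 0.34, 1.94-fold), so that Fzd10 missed the rule on the mean and passed it on array 2 alone. Its second measured probe had 0.08 and 0.82. The scanner's ratio for the brighter probe was 1.99 and passed.

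Fzd6, a receptor known for its part in hair patterning, had 0.15 ± 0.12, and the co-receptor gene Lrp5 -0.24 ± 0.30, with -0.02 and -0.45. For Lrp5 the dyes disagreed, with Cy3 signals of 241 in Lgr6-high cells and 219 in Lgr5-high cells and Cy5 signals of 178 and 199. Fzd3 was above background in Cy3 for both populations, Fzd9 only for Lgr6-high, and Fzd4 and Fzd5 only for Lgr5-high cells. Fzd8 and the other co-receptor, Lrp6, were not above background in any signal.

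Of the antagonists only Sfrp1 was called. This secreted Frizzled-related protein binds Wnt ligands. Its Cy3 signal was 196 in Lgr6-high cells and 443 in Lgr5-high cells and its Cy5 signal 161 and 217, the Lgr6-high one not well above background. The ratios were -1.02 and -1.0 (mean -1.01 ± 0.01), a 2.01-fold difference that barely met the rule. A second Sfrp1 probe was above background in neither population, at -0.04 ± 0.09. Dkk3, a Dickkopf relative, leaned the same way at -0.59 ± 0.22, with 146 and 204 in Cy3, and was called at -2.37 with the scanner's ratio. Dkkl1, a Dickkopf-like gene, had 0.31 ± 0.17, with Cy3 signals of 131 in Lgr6-high cells and 153 in Lgr5-high cells and Cy5 signals of 172 and 154, so that the order of the populations differed between the dyes.

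The remaining antagonists were dim. Wif1, a Wnt-binding inhibitor, was above background in Cy3 only for Lgr6-high cells (135 against 112) and Sfrp4 only for Lgr5-high cells (135 against 98.5). Dkk1, Dkk2, Dkk4, Sfrp2 and Sfrp5 were not above background in any signal.

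No gene of the destruction complex and its feedback was measured. Axin2, a common transcriptional readout of beta-catenin activity, was not above background in any signal, with 83.8 in Lgr6-high cells and 94.3 in Lgr5-high cells in Cy3. Neither was Nkd2, a Naked cuticle protein. Its relative Nkd1, a feedback inhibitor of the pathway, was above background in Cy3 only for Lgr5-high cells (184 against 120). The scaffold gene Axin1 was above background in Cy3 only for Lgr6-high cells (157 against 107). The ratios of both genes changed sign between the arrays, at -0.33 and 0.16 for Nkd1 and -0.07 and 0.26 for Axin1. Apc, the other scaffold gene, was above background in Cy3 for both populations. A probe with 1 spot had -0.18 ± 0.22, although its Cy3 signal was higher in Lgr6-high cells (157 against 118). An Apc probe with 10 spots had 0.02 ± 0.31.

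Myc, a growth regulator and known beta-catenin target in some tissues, was measured by 10 spots of its main probe. Their mean Cy3 signal was 1381 in Lgr6-high cells and 327 in Lgr5-high cells, and their mean Cy5 signal 275 and 210.2. All were well above background and higher for Lgr6-high. The ratios of 1.03 and 1.34 gave 1.18 ± 0.22 (2.27-fold). A second measured probe had 0.51 and 1.11 (mean 0.81 ± 0.42), and the mean over both measured probes, 0.997, missed 2-fold. The remaining Myc probe was not measured and had ratios of -0.04 and 0.28 (mean 0.12 ± 0.22). It was above background for Lgr6-high cells on 1 array and not for Lgr5-high cells. Its Cy3 signals were 181 in Lgr6-high cells and 108 in Lgr5-high cells. The transcription factors Lef1 and Tcf7, which carry beta-catenin to DNA, were above background in Cy3 only for Lgr5-high cells. Lef1 gave 147 there against 96.7, with ratios of -0.58 on array 1 and 0.0055 on array 2. Tcf7 gave 126 against 122, a small gap, with ratios of -0.11 and -0.61.

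**Figure D3:**
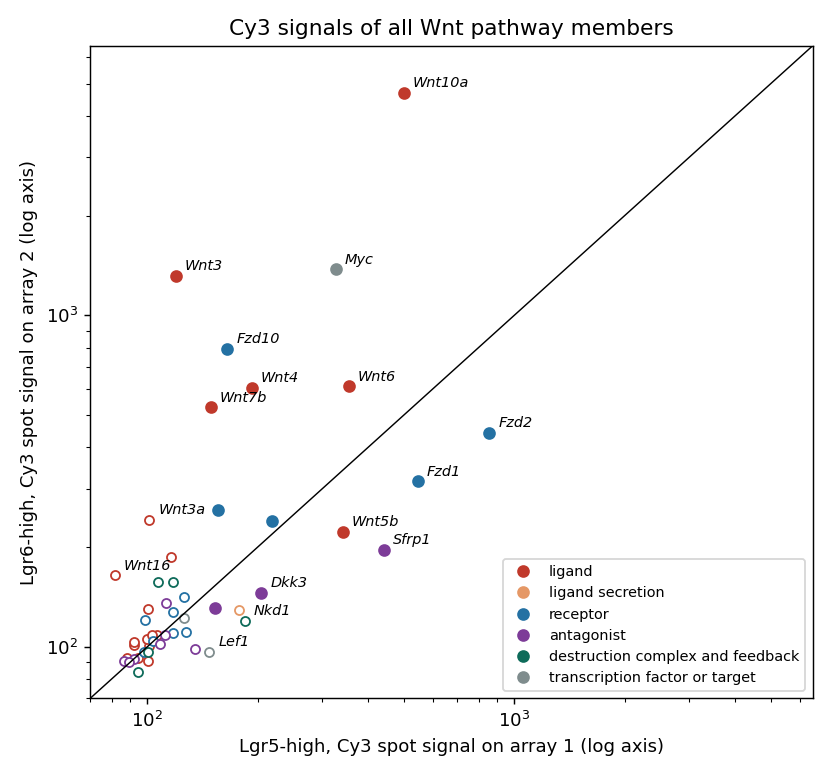
Cy3 spot signal of all 50 members, Lgr5-high from array 1 on the horizontal axis and Lgr6-high from array 2 on the vertical axis, both in scanner units on log axes and not normalised between arrays. Filled points are measured members, open points are not, and the line marks equal signals; Wnt10a, Wnt3, Wnt4, Wnt7b, Fzd10 and Myc lie above it and Fzd1, Fzd2, Sfrp1 and Wnt5b below.

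Detection in the sensitive dye can be counted over all 50 members, with 1 spot set per population and so with no replicate. In Cy3, 20 members were above background for both populations, 6 only for Lgr6-high, 6 only for Lgr5-high and 18 for neither. Over all 27730 genes of the array the shares were 32.8%, 4.14%, 3.39% and 59.7%. The 6 found only for Lgr6-high were the ligands Wnt3a, Wnt10b and Wnt16 with Fzd9, Wif1 and Axin1. The 6 found only for Lgr5-high held no ligand and were Fzd4, Fzd5, Sfrp4, Nkd1, Lef1 and Tcf7. Each such call rests on 1 hybridisation, and the signals that passed ran from 117 for Fzd5 to 242 for Wnt3a, not far above the negative controls.

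For promoters, RefSeq windows on build GRCm38.p6 held entries for 32 of the 50 members and for 2 of the 6 called ones, Wnt3 and Fzd1. They are shown as the 250 bases before the start site, because these genes lie on opposite sides of the comparison. Capitals mark the GC box GGGCGG, searched on both strands, which 32.7% of 32851 promoter windows of this length hold. The motifs CTTTGAT and CTTTGTT of Tcf and Lef factors, the AP-1 motif TGANTCA and the E-box CACGTG were searched in the same way and are held by 3.21%, 5.03%, 6.75% and 6.02% of windows. None of these 4 matched in either window, the GC box matched at 2 places in Wnt3 and at none in Fzd1, and no matches overlapped. The G and C content was 68.0% for Wnt3 and 51.2% for Fzd1.
Wnt3, chr11:103773925-103774174, plus strand: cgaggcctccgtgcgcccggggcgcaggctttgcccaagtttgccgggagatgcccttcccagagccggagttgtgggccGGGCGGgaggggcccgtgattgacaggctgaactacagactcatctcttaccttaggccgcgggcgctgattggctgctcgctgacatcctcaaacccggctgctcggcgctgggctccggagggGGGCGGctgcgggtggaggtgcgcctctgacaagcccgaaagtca
Fzd1, chr5:4758217-4758466, minus strand: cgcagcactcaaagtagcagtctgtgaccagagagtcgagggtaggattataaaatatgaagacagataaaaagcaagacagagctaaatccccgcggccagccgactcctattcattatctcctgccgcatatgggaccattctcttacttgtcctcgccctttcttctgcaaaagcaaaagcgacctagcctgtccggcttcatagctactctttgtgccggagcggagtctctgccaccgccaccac

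Of 54 further pathway genes 27 were measured, of which 1 was called higher in Lgr6-high cells, 4 higher in Lgr5-high cells and 22 in neither, with a median of -0.17. Over all measured genes the shares called were 7.28% and 4.76%. The gene toward Lgr6-high was Apcdd1, a membrane inhibitor of Wnt signalling, with ratios of 1.38 and 0.99 (mean 1.19 ± 0.28). Toward Lgr5-high cells were the BMP and Wnt inhibitor Sostdc1 (-2.15 ± 0.52), the receptor gene Lgr5 that defined the sort, the cyclin Ccnd1 (-1.30 ± 0.29) and the repressor Tcf7l1 (-1.26 ± 0.07). Beta-catenin itself, Ctnnb1, had -0.39 ± 0.27, and Wls, the ligand transporter listed under an older symbol on the array, 0.26 and 1.1 (mean 0.68 ± 0.59). The other uncalled genes ran from -0.70 for Ctnnbip1, an inhibitor of beta-catenin binding, to 0.88 for Celsr1, a cadherin of planar polarity. From array 2 alone 3 of the 27 passed toward Lgr6-high, namely Celsr1 (1.11), Tle4 (1.31) and Wls (1.1), while Apcdd1 at 0.99 did not. Over all measured genes, 611 of 6195 passed in that direction from array 2 alone.

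Markers of other cell types moved with the same contrast. Of 8 dermal fibroblast markers 7 were measured and 5 of these were called higher in Lgr5-high cells, the side of Fzd1, Fzd2 and Sfrp1, where 4.76% of all measured genes were called in that direction. The other measured fibroblast markers were Lum at -0.69 and Postn at 0.78. The list's summed level on the linear scale was 1121 to 1311 in Lgr6-high and 2507 to 3907 in Lgr5-high cells, with Dcn, Col3a1 and Lum not well above background in Lgr6-high cells on either array and Pdgfra in neither population. Of 6 bulge and hair germ markers 4 of 5 measured, Lgr5 included, were called on that side too, summing to 1317 to 1475 and 5077 to 6645. Sox9 was the uncalled one at -0.23, and Nfatc1 was not measured (0.14). On the side of Wnt10a, Wnt3 and Myc, 7.28% of all measured genes were called. Of the upper follicle markers, 4 of 5 measured were called there (1856 to 2327 in Lgr5-high and 16179 to 16915 in Lgr6-high cells). The uncalled one was Lrig1 at -0.01, and Lgr6, also on that list, was not measured (0.05). Of the suprabasal markers, 4 of 4 measured were called there (1194 to 1378 and 10876 to 13361), and Ivl was above background in no signal. Of the other lists, 3 of 4 measured endothelial and mural markers (Acta2 had 0.90) and the melanocyte gene Dct were called toward Lgr5-high cells. Called toward Lgr6-high cells were 3 of 3 measured Schwann cell markers and 2 of 6 keratinocyte markers. Krt14 had a mean of 1.07 and missed the rule, since array 2 gave -0.10. None of 5 leukocyte markers was measured, nor any of 6 dermal papilla markers, a list that holds the member Wif1. The part of these markers in the ratios of the Wnt genes was not tested, and fewer cells of a type cannot be told apart from less RNA per cell in such sorted bulk samples.

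The calls of the 6 members depended on the processing. Those of Fzd1, Fzd2, Sfrp1 and Myc did not hold without background subtraction, where they had -0.71, -0.95, -0.64 and 0.84. The same 4 fell short with the background model fitted on all spots, at -0.70, -0.77, -0.57 and 0.69. With median centring their means of -1.11, -1.28, -1.09 and 1.33 still passed 2-fold, and the call was lost because an array fell short of 0.5. Wnt10a lost it under median centring (2.46) and Wnt3 under the fit on all spots (1.22), for the same reason. Fzd1, Sfrp1 and Wnt3 left the set when both populations had to be above background. With the scanner's own ratio Wnt3 rose to 4.06, Sfrp1 to -2.47 and Fzd1 to -2.06. Limma, with Benjamini-Hochberg adjustment over all genes and the same 2-fold minimum, called the same 6 members, 3 of 15 in each direction against 7.39% of all genes toward Lgr6-high and 4.87% toward Lgr5-high cells. Its p-values would measure only the spread between hybridisations.

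**Figure D4:**
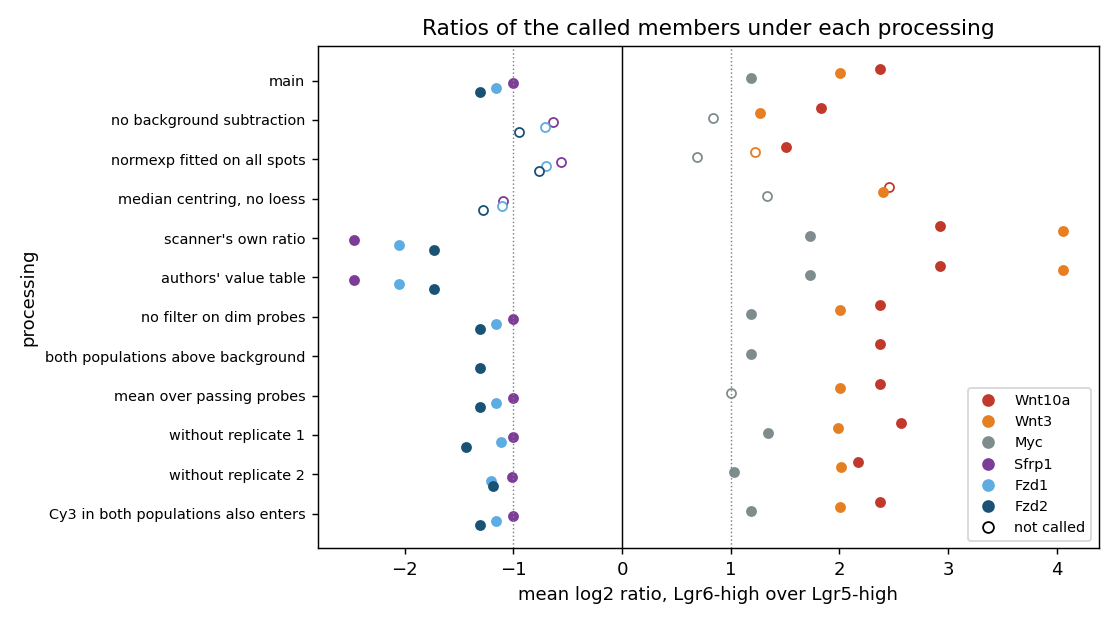
Mean log2 ratio of the 6 called members (horizontal axis) under the main processing and the alternatives that change a ratio or the set of genes (vertical axis), with open points where the rule was not met and no point where a member left the set. Wnt3 runs from 1.22 to 4.06 and Sfrp1 from -2.47 to -0.57; several of the alternatives change only which genes enter and repeat the main ratios.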

How the data were processed

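Lgr5-high and Lgr6-high RNA were hybridised together on each of 2 Agilent arrays with the dyes exchanged (150 ng of total RNA per labelling, per the labels). The authors deposited spot and local background intensity per channel on a linear scale, and the software's log10 ratio of Cy5 over Cy3 after background subtraction and dye normalisation. The file headers name Agilent Feature Extraction 10.5.1.1 and the submitters' processing notes 9.5.3. The authors' deposited value table holds the same log10 ratios, with the sign of array 2 turned.

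From the intensities, background was corrected with normexp (limma 3.58.1, R 4.3.3; offset 50), fitted on spots without outlier marks, and log2 ratios were normalised by loess within each array. Marked spots (139 and 204) and controls were left out, spots of a probe were averaged, and a probe was above background where a share of at least 0.5 of its spots were. Names came from a RefSeq table (33070 of 41174 probes matched) and the brightest passing probe stood for a gene. Members kept their name in the files. Every measured member is named. The members, the other gene lists and the rules were chosen with earlier results of these data known. The pair of arrays was treated as 1 replicate, so that populations were not tested. The rule of size was tested on simulated data. Spot number and 2 arrays limit the precision.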

Additional observations from a re-analysis of the deposited data

How the results depend on the processing

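The arrays were also processed in 13 other ways, of which the entry of probes above background in Cy3 for both populations was chosen after seeing the data. Members called toward Lgr6-high and Lgr5-high numbered 2 and 0 without background subtraction, 1 and 0 both with normexp fitted on all spots and with median centring, 6 and 5 both with the scanner's own ratio and with the authors' value table, 6 and 3 at a 1.5-fold minimum, and 2 and 1 with both populations above background. Other pathway genes numbered 0 and 2, 0 and 1, 0 and 2, 6 and 7, 4 and 6, and 1 and 2 in the same order. Leaving out an array gave 3 to 4 and 3 to 3 members, and 1 to 3 and 4 to 5 other pathway genes. It gave 434 to 611 and 315 to 471 of all 6195 measured genes. The ligand median was 0.52 without background subtraction, 0.51 with the fit on all spots, 1.07 with median centring, 1.60 with the scanner's ratio or the authors' value table and 0.11 without the filter on dim probes, and 0.69 to 0.90 from single arrays. The receptor median was -0.14 without background subtraction, -0.04 with the fit on all spots, -0.13 with median centring, -0.56 with the scanner's ratio or the authors' value table, -0.78 where each population had to be above background and -0.45 to -0.02 from single arrays. The median of the other members was -0.88 with the scanner's ratio or the authors' value table, 1.18 where each population had to be above background and Myc alone was left, and -0.28 to 0.0018 from single arrays. Over all genes the calls ran from 134 and 57 with median centring to 958 and 958 with the scanner's ratio, against 451 and 295, and 124 and 151 with the fit on all spots. The causes of these shifts were not tested, apart from the smaller gene sets named. None of the 35 members that were not measured had a Cy5 signal above background. Entry needed both arrays and so a signal above background in the less sensitive Cy5.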
